A study of Mus musculus with 6 samples.

Results

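Low-contractile Car3/Cxcl14 stromal cells are bladder stromal cells that carry the transcripts of the Car3/Cxcl14 myofibroblast and few or none of its contractile transcripts. They were chosen in silico from single-cell counts of unique molecular identifiers (UMIs, tags that mark each captured mRNA molecule): 1814 of 55399 cells met the rule. A cell counted as stromal with at least 10 UMIs of Col1a1, Col1a2, Col3a1 and Dcn together, more than its summed UMIs of 6 keratins and more than its UMIs of Myh11, Des and Cnn1. It had no UMI of Ptprc or Pecam1, the pan-leukocyte and endothelial markers, and at most 2 of Top2a, Mki67, Birc5 and Ube2c. This left 11421 stromal cells. In 5705 of them the sum of Car3, Cxcl14 and Rbp4 was at least 2 and exceeded each of 3 other fibroblast sums (Pi16 with Mfap5, Has1 with Scara5 and Bglap2, Inmt with Sct and Ass1). Of these Car3/Cxcl14-led cells, 1814 held at most 3 UMIs of Acta2, Tagln and Myl9 together and are the low-contractile cells, 549 held 4 or 5, and 3342 held 6 or more and are called contractile cells here. The 5267 stromal cells led by another of these fibroblast sums, also with at most 3 contractile UMIs, served as the other fibroblasts.

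Myofibroblasts are stromal cells that assemble smooth-muscle actin and myosin into contractile bundles. Acta2 encodes that actin, Tagln (transgelin) cross-links it and Myl9 is a myosin regulatory light chain. In the bladder, cells of this kind lie in the lamina propria under the urothelium, which receives ligands from the stroma, and Cd34 marks fibroblasts of most connective tissues. Car3 is a cytosolic carbonic anhydrase, Cxcl14 a chemokine, Rbp4 the carrier of retinol, and Aldh1a2 an enzyme that makes retinoic acid.

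The study asked how the mouse bladder mucosa responds to injury by cyclophosphamide (CPP), a DNA-alkylating drug whose metabolites reach the urothelium through the urine. Mucosa of wild type C57BL/6 mice, 8 weeks old, was peeled off the bladder, digested with collagenase IV and DNase I and run on a droplet-based 3' assay. The healthy, acute (CPP, collected at 48 h) and chronic (4 rounds of CPP, collected on day 11) conditions had 2 libraries each. The labels do not say which animals each library holds, so the p-values below measure the spread between libraries.

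The libraries held 54604109 to 111985678 UMIs over 5348 to 15062 barcodes, and pairs of libraries shared 36 to 229 barcodes, with 2 low-contractile cells among them. The second acute library stood apart. It supplied 1062 of the 1814 cells, and 46.7% of its keratin-rich cells (over 20 keratin UMIs and at most 2 stromal UMIs) carried at least 2 UMIs of Car3, Cxcl14 and Rbp4, against 0.659% to 5.39% in the other libraries. The chronic libraries supplied only 44 and 61 cells, and in the smaller sum 1 UMI equals 10.8 CPM (UMIs of a gene scaled to a library total of 1000000). All 6 libraries held low-contractile cells: 461 and 104 in the healthy, 82 and 1062 in the acute and 44 and 61 in the chronic replicates 1 and 2.

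The values that chose the cells are given first, as a description with no test. Among the 1814 cells, 641 (35.3%) had no contractile UMI at all, 460 had 1, 359 had 2 and 354 had 3. A UMI of Myl9 was seen in 39.4% of the cells, of Tagln in 27.9% and of Acta2 in 27.5%. Cxcl14 gave the most UMIs of the 3 leading genes in 66.8% of the cells, Car3 in 24.7% and Rbp4 in 2.26%, and 58.9% of the cells held all 3 transcripts. Rbp4 was most often missing, without a UMI in 33.3% of the cells, against 13.1% for Car3 and 3.69% for Cxcl14. At the lower limit, 50 of the cells had just 2 UMIs of the leading genes, and 1212 stromal cells with 1 such UMI fell outside. The low-contractile cells were also the poorer ones in their own leading genes, with a median of 9 to 21 UMIs per library against 20 to 78.5 in the contractile cells, although their median total UMIs (2391 to 4828.5) were nearer to those of the contractile cells (2963 to 6225). Chronic replicate 2 was the exception, with medians of 21 and 20 leading UMIs and of 4467 and 4156 total UMIs in low-contractile and contractile cells.

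No step was visible at the limit of 3 contractile UMIs. Cells with 3 UMIs held a median of 28 leading UMIs and cells with 4 held 32, in a series that ran from 10 at 0 UMIs to 45 at 8. Actg2, the enteric smooth-muscle actin, which the rule did not use, went from 0.214 UMIs per 10000 in cells without a contractile UMI to 0.845 at 3, 0.927 at 4 and 1.90 at 8. Cd34, the surface marker of other fibroblasts, went the other way, from 0.961 to 0.340 at 3, 0.297 at 4 and 0.195 at 8. Summed over the libraries, Aldh1a2 lay between 1.15 and 1.44 over the range, and Ptn, a heparin-binding growth factor, between 0.461 at 0 UMIs and 0.743 at 8. The libraries differed in level and in their share of each sum, and within a library Aldh1a2 was higher in contractile than in low-contractile cells of 5 libraries, at 2.47 against 1.68 UMIs per 10000 in healthy replicate 1 and 1.35 against 0.909 in acute replicate 2. Gatm, the third label marker, went from 0.125 at 0 UMIs to 0.448 at 3 and 0.381 at 8.

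**Figure D1:**
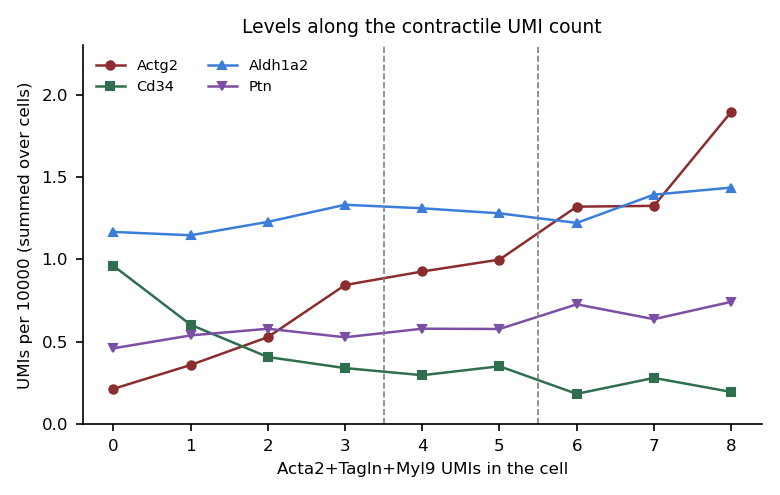
UMIs per 10000 of Actg2, Cd34, Aldh1a2 and Ptn (y axis), summed over Car3/Cxcl14-led cells of all libraries with 0 to 8 UMIs of Acta2, Tagln and Myl9 (x axis); dashed lines mark the limits of the low-contractile and contractile classes. Actg2 climbs from 0.214 to 1.90 and Cd34 drops from 0.961 to 0.195, without a step at the lower line. Across the upper line, from 5 to 6 UMIs, Actg2 goes from 0.999 to 1.32 and Cd34 from 0.351 to 0.184, with Cd34 back at 0.280 at 7. Aldh1a2 lies between 1.15 and 1.44 and Ptn between 0.461 and 0.743.

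The label markers Aldh1a2, Ptn and Gatm, which the rule did not use, were compared between the low-contractile cells and the other fibroblasts. They were picked with earlier results of these data known, so their difference is no independent check of the label. UMIs were summed per library and class, and the sums were tested in edgeR (quasi-likelihood test, library as a block, Benjamini-Hochberg adjustment). Levels from here on are CPM scaled by the factors of each comparison (trimmed mean of M values, TMM), and changes are log2 fold changes ± SE. Aldh1a2 stood at 255, 154, 239.9, 138, 116 and 126 CPM in the low-contractile cells of healthy, acute and chronic replicates 1 and 2, and at 36.1, 11.8, 18.9, 26.7, 10.1 and 39.2 CPM in the other fibroblasts. The ranges did not overlap, and the difference was 2.96 ± 0.16 (adjusted p = 1.26e-17). An Aldh1a2 UMI was found in 18.2% to 54.9% of low-contractile cells per library and in 0.145% to 3.68% of keratin-rich cells, which had the higher median UMIs (5707.5 to 9546 against 2391 to 4828.5). Ptn was higher by 3.86 ± 0.25 and Gatm, which makes the precursor of creatine, by 3.77 ± 0.36, but neither had a single UMI in the low-contractile cells of chronic replicate 1, nor Gatm in healthy replicate 2. All 3 label markers passed, and Aldh1a2 was higher in every library.

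Against the other fibroblasts, 905 of 11079 genes tested (8.17%) were higher in low-contractile cells and 870 (7.85%) were lower. Tnc, the tenascin of remodelling matrix, stood at 286, 47.4, 273, 344, 57.9 and 465 CPM in low-contractile cells and at 0 to 39.2 CPM in the other fibroblasts, a difference of 5.22 ± 0.25. Every library showed it, and the lowest low-contractile value was above the highest fibroblast value. Of 49 matrix genes tested, 24 were higher and 18 lower (median 0.32, against 0.01 over all genes). On the higher side were Fmod (3.43), a small proteoglycan that binds collagen fibrils, Col6a3 (2.82), a chain of microfibrillar collagen VI, Thbs2 (1.76) and the basement membrane chains Col4a2 (1.49) and Col4a1 (1.33). On the lower side were Lum (-2.54), the related proteoglycan lumican, the elastic fibre genes Eln (-2.33) and Fbn1 (-1.65), Postn (-2.31) and Col14a1 (-1.41). Spon1 (3.21), a secreted matrix protein, and Kcnk2 (3.25), a potassium channel of the cell membrane, were also among the 12 largest rises.

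Ligands and their inhibitors separated the classes in both directions, 16 of 38 higher and 9 lower (median 0.06). Dkk2, a Wnt inhibitor, read 373, 249, 601, 364, 212 and 424 CPM in low-contractile cells against 5.25 to 46.5 CPM in the other fibroblasts (3.74 ± 0.20). Bmp5, a bone morphogenetic protein, read 263, 194, 319, 271, 29.0 and 438 CPM against 6.75 to 39.9 CPM (3.25 ± 0.17), and within each library the low-contractile cells were the higher. For both genes chronic replicate 1 gave the lowest low-contractile value, and for Bmp5 that value lay within the range of the other fibroblasts. Bdnf, a neurotrophin, was higher by 3.48 ± 0.30 and Bmp7 by 1.90 ± 0.14. Notum, an enzyme that inactivates Wnt proteins, was higher by 2.66 ± 0.19. The Wnt inhibitor Sfrp1 (-2.15), Igfbp5 (-1.87), which binds insulin-like growth factors, and Tgfb2 (-1.48) were lower, while Fgf7 (0.01 ± 0.23) and Bmp4 (-0.11 ± 0.11) did not pass the test.

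The hedgehog response genes, which stromal cells switch on when they receive hedgehog ligand from the epithelium, gave 3 of 8 higher and none lower (median 0.67). They were the ligand-binding inhibitor Hhip (3.56 ± 0.19), the receptor Ptch1 (1.17 ± 0.14) and the transcription factor Gli1 (0.96 ± 0.22). Hhip varied widely, at 156, 11.9, 125, 155, 9.65 and 99.3 CPM in low-contractile cells, and was lowest where the other fibroblasts were also lowest, at 1.68 and 2.63 CPM in healthy replicate 2 and chronic replicate 1. Among stromal transcription factors 10 of 29 were higher and 9 lower. Foxf2 (1.21), Hoxa11 (1.16), Tbx2 (1.14), Hoxa10 (0.88) and Foxf1 (0.71) were higher, and Osr1 (-1.76) and Tcf21 (-0.73) were lower. Of the retinoid genes beside Aldh1a2 and Rbp4, 3 of 11 were higher and 3 lower. Among them, Aldh1a1, another retinaldehyde dehydrogenase, was higher by 1.29 ± 0.19 and Rdh10, which makes its substrate, by 0.76 ± 0.17, while Rara, a retinoic acid receptor, was lower (-0.61 ± 0.17).

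The markers of the other fibroblasts fell almost throughout, 11 of 14 lower and 3 higher (median -1.04). Clec3b (tetranectin) read 111, 285, 145, 279, 386 and 54.2 CPM in low-contractile cells and 878 to 2717 CPM in the other fibroblasts (-3.48 ± 0.15). Cd34 read 98.0, 217, 88.7, 83.7, 155 and 9.03 CPM against 282 to 825 CPM (-2.76 ± 0.14). Neither gene's ranges overlapped between the classes. Pcolce2 (-4.68), which helps process procollagen, Stmn2 (-4.48), Tppp3 (-3.63), Dmkn (-3.57), Krtdap (-3.18), Prss23 (-2.86), Abi3bp (-2.85) and Dclk1 (-2.68) were, with Lum, also among the 12 largest falls. Thy1 (1.42), Smoc2 (1.07) and Pdgfra (0.48) were the 3 markers that were higher.

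Among chemokine, cytokine and innate immune genes 6 of 29 were higher and 13 lower (median -0.33). Ccl8 rose by 2.70 ± 0.23 and Cxcl10 by 2.07 ± 0.18, both chemokines for leukocytes, and the prostaglandin synthases Ptgs1 (1.66) and Ptgs2 (0.68) with the cytokine Il6 (0.57) were also higher. The complement genes C3 (-3.44), C4b (-0.96) and C1ra (-0.70), the alarmin Il33 (-1.04) and the chemokines Ccl2 (-0.87) and Cxcl1 (-0.95) were lower. Interferon response genes were lower in 4 of 24 and higher in none, and p53 targets lower in 9 of 20 and higher in 2. Of 24 immediate-early and heat shock genes, 4 were higher and 3 lower. With cells of at most 2 keratin UMIs, which left 3 libraries, 6 of 28 innate genes were higher and 5 lower (median -0.12), p53 targets were lower in 2 of 18, and the interferon list had 1 of 24 lower and a median of 0.10 in place of -0.16.

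Both classes were held to 3 contractile UMIs, but within that limit they were not matched: Myl9 read 186, 150.2, 138, 218, 154 and 113 CPM in low-contractile cells against 7.84 to 55.0 CPM in the other fibroblasts, and Acta2 and Tagln were also higher in every library. Of 27 further contractile genes, 14 were higher and 4 lower (median 0.42), and with low-contractile cells of at most 1 contractile UMI 7 of 26 were higher and 5 lower (median 0.25). Actg2 read 31.3, 344, 39.4, 70.2, 57.9 and 90.3 CPM against 0 to 22.7 CPM, higher by 2.26 ± 0.25. Mylk, the kinase that activates myosin light chains, was higher by 2.17 ± 0.14 and the actin cross-linker Actn1 by 2.44 ± 0.20. Pdlim3 (-2.04), Crip1 (-1.05), Cav1 (-0.73) and Zyx (-0.42) were lower.

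Without acute replicate 2, 1018 genes passed in place of 1775, and without healthy replicate 1 971 passed. In both cases the 24 named genes (12 in each direction) and the 3 label markers still passed. Urothelial markers stood higher in 6 of 17 (median 0.28), at a summed 5487 to 16380.0 CPM in low-contractile cells and 4579 to 13112 CPM in the other fibroblasts (unscaled CPM). With called doublets left out 0 of 17 urothelial markers passed (median 0.09, 14 positive). With cells of at most 2 keratin UMIs only 3 libraries were left, and 785 genes passed, all 24 named genes included. There 0 of 13 urothelial markers passed, with 8 positive and a median of 0.09. Immune markers were lower in 7 of 11 (median -0.77), in 0 with called doublets left out (median -0.31) and in 1 with DESeq2. Endothelial markers summed to 10.8 to 94.6 CPM and immune markers to 100.3 to 338 CPM in low-contractile cells. In the other fibroblasts they summed to 8.67 to 41.9 CPM and to 79.5 to 1951 CPM (unscaled CPM). The highest immune sum was that of chronic replicate 2, with 35 other fibroblasts.

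**Figure D2:**
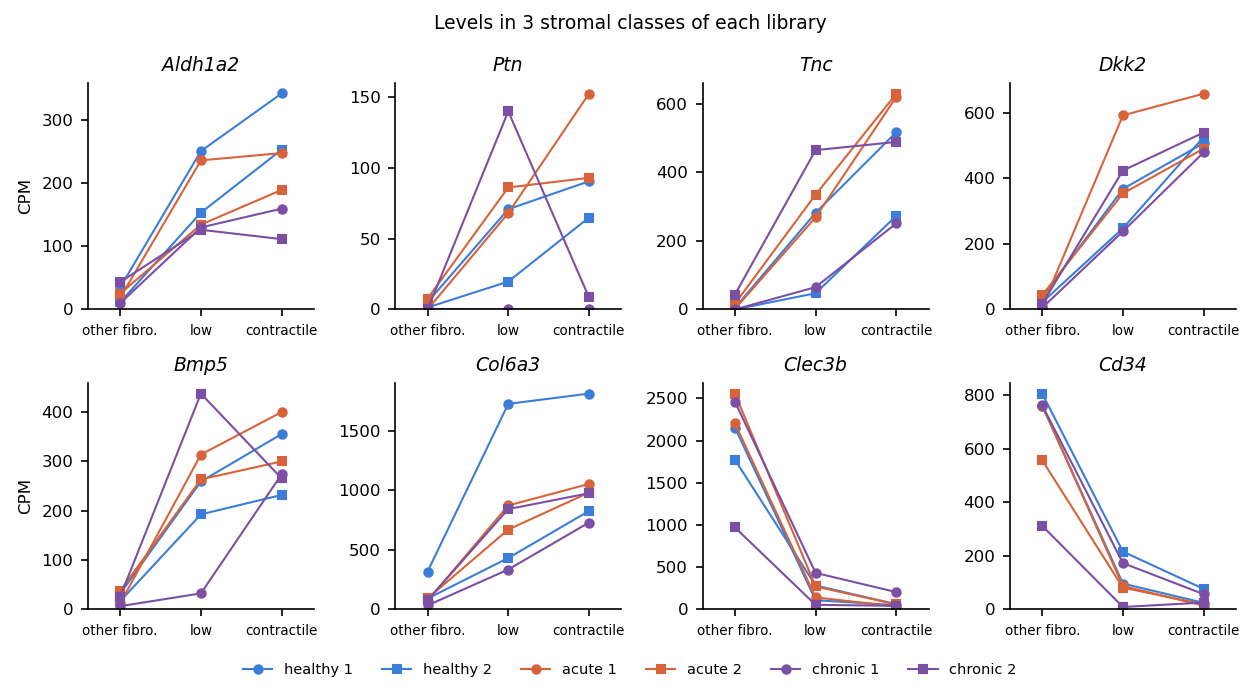
CPM (y axes, without TMM scaling) of 8 genes in the other fibroblasts, the low-contractile cells and the contractile cells of each library; each line joins the 3 classes of 1 library. Aldh1a2, Tnc, Dkk2 and Col6a3 are near the bottom in the other fibroblasts and higher in both Car3/Cxcl14-led classes, while Clec3b and Cd34 fall from the other fibroblasts to the contractile cells with the low-contractile cells between them in all libraries but chronic replicate 2 for Cd34.

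The second comparison set the low-contractile cells against the contractile cells of the same libraries. Acute replicate 2 supplied 2429 of the 3342 contractile cells, and chronic replicates 1 and 2 supplied 35 and 36. Both classes were drawn by UMIs of the same cells, so a shallow cell falls more easily into the low-contractile class, and the p-values measure how evenly a gene differed over the 6 libraries. Of 5974 genes tested, 414 (6.93%) were higher in low-contractile cells and 374 (6.26%) lower. Without acute replicate 2 the total was 505 in place of 788, and without healthy replicate 1 it was 370. The 12 largest falls passed in both cases, and of the 12 largest rises Gm13889 and Lmo7 were lost without healthy replicate 1. With DESeq2 472 genes passed, 464 of them in common and in the same direction.

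The rest of the contractile programme was low together with the 3 genes that chose the cells: 21 of 24 further contractile genes were lower and none higher (median -0.80, all genes 0.01). Actg2 read 30.4, 338, 38.2, 68.1, 62.8 and 89.8 CPM in low-contractile cells and 327, 1034, 437, 579.7, 1321 and 550.0 CPM in contractile cells (-2.88 ± 0.18, adjusted p = 3.28e-10). Mylk read 222, 139.7, 223, 176, 94.2 and 278 CPM against 632, 447, 773, 517, 361 and 550.0 CPM (-1.54 ± 0.10). Every library showed both differences, and for Mylk the ranges did not overlap. Fbxl22, an F-box protein of muscle, read 10.5, 3.88, 35.0, 30.4, 10.5 and 0 CPM against 110.4, 103, 194, 212, 181 and 43.0 CPM (-3.00 ± 0.16), again without overlap. Lmod1, which nucleates actin filaments in smooth muscle, was lower by -2.84 ± 0.24, and the tropomyosins Tpm2 (-1.28 ± 0.11) and Tpm1 (-1.16 ± 0.09), the calponin Cnn2 (-1.04 ± 0.09) and Csrp1 (-1.04 ± 0.08) were lower in every library. Also among the 12 largest falls were the LIM proteins Fhl2 (-1.29) and Fhl1 (-1.18), Cdc42ep3 (-1.13), a Cdc42 effector, and Ccnd1 (-1.08), the cyclin of the G1 phase. Cav1 (-0.24 ± 0.13), Ppp1r14a (-0.19 ± 0.10) and Crip1 (-0.12 ± 0.10) did not pass.

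Acta2, Tagln and Myl9 are classic targets of serum response factor, which binds the CArG box, so the promoters of the genes that were lower were searched for it. The box reads alike on both strands and was looked for in the 250 bases before the transcription start (RefSeq, GRCm38.p6). Of the 374 genes that were lower, 305 (81.6%) had a promoter in the table, and 14 of them (4.59%) held a box, against 80 of 4807 tested genes with a promoter (1.66%) and 439 of 27025 promoters in all (1.62%). Of the 12 largest falls, 10 had a promoter and 4 of those held a box. These 4 windows, shown because they belong to genes among the largest falls, are given 5' to 3' on the gene's strand with the box in capitals, for Fbxl22 at chr9:66514781-66514840 (minus), Fhl2 at chr1:43163962-43164017 (minus), Fhl1 at chrX:56779556-56779615 (plus) and Cnn2 at chr10:79988519-79988578 (plus).
Fbxl22: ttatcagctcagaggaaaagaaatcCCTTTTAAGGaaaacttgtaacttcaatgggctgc
Fhl2: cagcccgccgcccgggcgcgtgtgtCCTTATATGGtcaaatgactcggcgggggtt
Fhl1: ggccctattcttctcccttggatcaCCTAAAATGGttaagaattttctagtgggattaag
Cnn2: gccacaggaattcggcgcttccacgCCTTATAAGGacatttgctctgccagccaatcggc
The box ends 212, 21, 92 and 46 bases before the start in this order. A match in the letters is a description of the promoter, and binding was not measured.

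**Figure D3:**
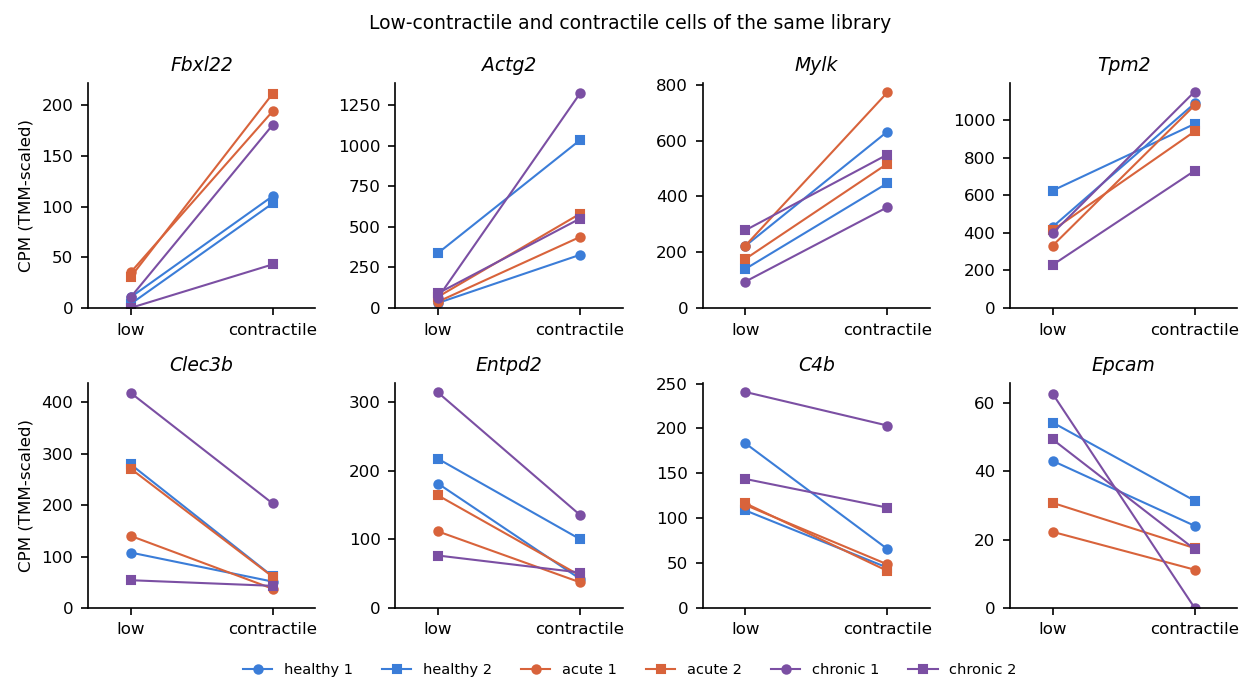
TMM-scaled CPM (y axes) of 8 genes in the low-contractile and contractile cells of each library, with a line joining the classes of 1 library. Fbxl22, Actg2, Mylk and Tpm2 are higher in the contractile cells of every library, and Clec3b, Entpd2, C4b and the urothelial marker Epcam are higher in the low-contractile cells of every library.

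Of 47 matrix genes tested, 17 were lower and 7 higher in low-contractile cells (median -0.17). With cells of at most 2 keratin UMIs 9 of 45 were lower and 9 higher (median 0.08). Sparc, a calcium-binding matrix protein, read 9110.0, 4114, 7011, 6271, 3986 and 6156 CPM against 14249, 7675, 15044, 11029, 9110.3 and 8817 CPM (-0.86 ± 0.08), lower in each library. Tnc (-1.02), Col4a2 (-0.96), Col4a1 (-0.82), Thbs2 (-0.77), Loxl2 (-0.57) and Col6a3 (-0.48) were also lower in all 6 libraries. These genes had stood above the other fibroblasts in the low-contractile cells, so their levels lay between the classes. Sparcl1 (1.56 ± 0.17), Tnxb (1.49 ± 0.15), Col15a1 (1.16 ± 0.19), Lum (1.08 ± 0.14), Col14a1 (0.92 ± 0.14) and Fbln1 (0.75 ± 0.15) were higher than in contractile cells, and all 6 had been lower than in the other fibroblasts.

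The label markers did not mark the low-contractile cells off from the contractile ones on the higher side. Aldh1a2 was lower by -0.46 ± 0.10 (adjusted p = 0.00251), in 5 libraries, with chronic replicate 2 at 126 against 112 CPM. Gatm (-0.60 ± 0.30) and Ptn (-0.31 ± 0.20) did not pass. Among ligands and modulators 6 of 26 were higher and 7 lower (median -0.14): Sfrp1 (2.09 ± 0.31), Igfbp4 (1.00), Igfbp2 (0.76), the angiogenic factor Vegfa (0.76), Sema3c (0.59) and Sfrp2 (0.37) were higher, and among the lower were Bdnf (-1.03), Igf1 (-0.69), Dkk2 (-0.56), Igfbp7 (-0.52), Bmp4 (-0.39) and Gas6 (-0.35). Sfrp1 rested on few molecules, at 33.2, 27.2, 12.7, 22.7, 83.7 and 0 CPM in low-contractile cells. Hhip (-0.96 ± 0.13) and Ptch1 (-0.41 ± 0.11) were the 2 of 6 hedgehog response genes that passed, both lower. Of 8 retinoid genes, 1 was higher and 1, Rarres2 (-0.33), lower, and of 18 transcription factors Osr1 (0.71) and Meis2 (0.55) were higher and Hoxa11 (-0.45) lower.

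Markers of the other fibroblasts were higher in low-contractile than in contractile cells in 7 of 14 and lower in 2 (median 0.42). Without acute replicate 2 they were 5 and 2 (median 0.14), and with classes set by contractile UMIs per 10000, in place of UMIs per cell, 5 and 3 (median 0.14). Over all genes, 1005 of 5786 were higher and 925 lower with classes set per 10000 UMIs. Clec3b read 108, 279, 140.2, 271, 419 and 53.9 CPM against 51.2, 61.3, 37.3, 60.7, 203 and 43.0 CPM (1.74 ± 0.16). Cd34 read 95.03, 213, 86.0, 81.2, 167 and 8.98 CPM against 25.2, 76.3, 14.9, 19.2, 56.4 and 25.8 CPM (1.88 ± 0.15). Clec3b was higher in every library and Cd34 in all but chronic replicate 2. The other 5 were the complement regulator Cd55 (1.00), Gfpt2 (1.70), Gsn (0.95), Cd248 (0.42) and Efemp1 (0.41), and Thy1 (-0.96) and Smoc2 (-0.52) were lower. Against the other fibroblasts all of these except Thy1 and Smoc2 had been lower in the low-contractile cells.

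Several innate immune genes were higher than in contractile cells. Of 25 chemokine, cytokine and innate genes, 8 were higher and 1, Ccl8 (-0.85 ± 0.12), was lower (median 0.27). With classes per 10000 UMIs, 8 were higher and 6 lower (median 0.14), and over all genes 1005 of 5786 were higher and 925 lower. C4b, a complement component, read 183, 109, 115, 117, 241 and 144 CPM against 65.7, 44.9, 48.5, 41.3, 203 and 112 CPM (1.32 ± 0.13), higher in each library though the ranges overlapped. Il33 (0.83 ± 0.19), the adhesion molecule Icam1 (0.82 ± 0.12), Il6 (0.75 ± 0.12), Cxcl1 (0.71 ± 0.17), Nfkbiz (0.51 ± 0.13) and Nfkbia (0.35 ± 0.12) were also higher. Outside the list, Entpd2, an ectonucleotidase that hydrolyses extracellular ATP, read 181, 217, 112, 164, 314 and 76.3 CPM against 42.4, 100.2, 37.3, 47.2, 136 and 51.6 CPM (1.70 ± 0.13). Lbp, the lipopolysaccharide-binding protein, was higher by 1.31 ± 0.12, the scaffold Akap12 by 0.88 ± 0.10, Khk, the kinase of fructose, by 0.86 ± 0.12 and Gm13889 by 0.87 ± 0.18. Interferon response genes were higher in 4 of 23, p53 targets in 3 of 16 and immediate-early and heat shock genes in 3 of 24, with 0, 0 and 2 lower. With classes per 10000 UMIs, interferon genes had 2 higher and 3 lower (median -0.09, 8 of 22 positive) and immediate-early and heat shock genes 3 higher and 4 lower (median -0.05), so both medians turned from 0.15 and 0.10. Without acute replicate 2 the interferon median was -0.01 with 9 of 19 positive. The p53 targets that passed were 1 without acute replicate 1, 1 without acute replicate 2 and 5 without chronic replicate 2.

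Urothelial markers moved with these groups. Of 16 tested, 14 were higher in low-contractile than in contractile cells and none lower (median 0.57), 12 of them in every library. With classes per 10000 UMIs all 16 were higher (median 1.29), against 1005 of 5786 over all genes. Their sum was 5487 to 16380.0 CPM against 1694 to 9943 CPM (unscaled CPM). Of the 12 largest rises, Cd55, Gsdmc2 (0.92), Tnfaip2 (0.90), Syt8 (0.86) and Lmo7 (0.86) were at higher CPM in the keratin-rich cells of all 6 libraries than in the low-contractile cells, whereas Clec3b, Entpd2, C4b, Lbp, Akap12, Gm13889 and Khk were lower there in all 6 libraries. Clec3b, for example, read 7.72 to 38.7 CPM, Lbp 1.39 to 7.67 CPM and C4b 3.10 to 15.6 CPM in keratin-rich cells (unscaled CPM). Called doublets were more frequent in low-contractile than in contractile cells in 5 libraries (8.54% to 16.4% against 0% to 10.3%) and 0% in both classes of chronic replicate 1. With doublets left out 7 of 15 urothelial markers passed, all 15 positive. Cells of at most 2 keratin UMIs left 3 libraries, in which 298 genes passed. There 0 of 13 urothelial markers passed, though 12 were still positive (median 0.27), while 16 of 23 contractile genes were still lower, 6 of 14 markers of the other fibroblasts higher and 9 of 24 innate genes higher. Of the 12 largest rises Syt8 did not pass there and 2 could not be tested. The part of urothelial RNA in the other rises was not tested.

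In all, 390 genes passed both comparisons, which share the low-contractile sums. In 281 of them the low-contractile cells lay between the other fibroblasts and the contractile cells, in 70 above both and in 39 below both. These places are those of sums over cells, and the place of single cells was not tested. Of the 1814 low-contractile cells, 592 (32.6%) held fewer than 10 leading UMIs. Among the other fibroblasts, 6.26% (chronic replicate 1) to 34.4% (acute replicate 2) held at least 2. Genes above both at high levels were the glutathione transferase Gstm1 (0.53 against contractile cells and 0.26 against the other fibroblasts), the transcription factor Foxq1 (0.77 and 0.36), Olfml3 (0.33 and 0.95) and the Wnt receptor Fzd1 (0.39 and 0.37). Igfbp2 (0.76 and 0.38) was above both too, but against the other fibroblasts its difference was -0.066 in cells of 2500 to 10000 UMIs. The urothelial markers Ly6d, Wfdc2 and Upk1a were also above both, and with at most 2 keratin UMIs Ly6d stood at -0.017 against the other fibroblasts. Below both lay S100a11 (-0.29 and -0.44), the actin-binding profilin Pfn1 (-0.29 and -0.41), the peroxidase Gpx1 (-0.39 and -0.46) and the small GTPase Rhoa (-0.34 and -0.48). These genes were picked out after their values were seen.

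The share of low-contractile cells among the Car3/Cxcl14-led cells was compared between conditions. Healthy replicate 1 had 41.5% (38.7% to 44.5%, the 95% Wilson bounds) and healthy replicate 2 had 26.4% (22.3% to 31.0%). The shares were 49.7% (42.2% to 57.2%) and 27.6% (26.3% to 29.1%) in the acute and 50% (39.8% to 60.2%) and 57.0% (47.5% to 66.0%) in the chronic. The acute and healthy libraries overlapped, at 38.7% ± 15.6 and 34.0% ± 10.7 (SD, n = 2; exact permutation test, two-sided, p = 0.667). Both chronic libraries lay above both healthy ones, at 53.5% ± 4.96, which with 2 libraries a group gives the smallest p possible (exact permutation test, p = 0.3333). Among cells with at least 10 leading UMIs, chronic replicate 1 (32.8%) lay below healthy replicate 1 (36.7%). The intervals cover counting error only.

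When each cell was thinned to 2000 UMIs, and low-contractile meant at most 1 UMI, the shares were 45.9% and 23.9% (healthy), 53.9% and 26.3% (acute) and 39.5% and 57.9% (chronic). The chronic libraries then no longer lay above both healthy ones (difference 13.8 percentage points, exact permutation test, p = 0.667). At 4000 UMIs, with at most 2 UMIs, they did again, at 57.1% and 58.2% against 38.1% and 24.6% (p = 0.3333, exact), but only 7 cells of chronic replicate 1 were left. Thinning to 2000 UMIs left out 360 cells of acute replicate 2, 2 of chronic replicate 1 and none of the other libraries.

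**Figure D4:**
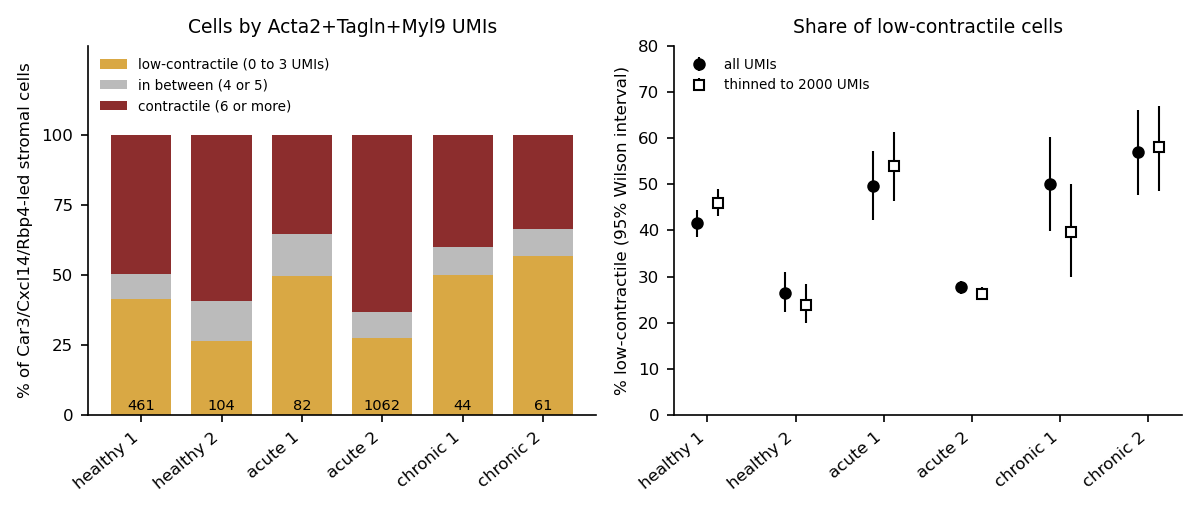
Left, the percentage of Car3/Cxcl14-led cells with 0 to 3, 4 or 5, and 6 or more UMIs of Acta2, Tagln and Myl9 in each library, with the number of low-contractile cells in each bar. Right, the percentage of low-contractile cells with its 95% Wilson interval from all UMIs and after thinning to 2000 UMIs; the shares from all UMIs run from 26.4% in healthy replicate 2 to 57.0% in chronic replicate 2.

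Within the low-contractile cells, the response to injury was tested over the libraries. In the acute comparison 0 of 5115 genes (0%) passed an adjusted p of 0.05 with edgeR, 126 had an unadjusted p under 0.05, and DESeq2 passed 4 genes: Ifit1, Ifit3, Isg15 and Dcxr. Both acute libraries lay above both healthy libraries in 741 genes (14.5%) and below in 787 (15.4%). Ifit3 and Ifit1, interferon-induced antiviral proteins, were the largest rises among genes with a mean of at least 50 CPM and no overlap between the groups. Ifit3 read 14.4 and 11.98 CPM in the healthy, 88.3 and 281 CPM in the acute and 32.5 and 67.8 CPM in the chronic libraries (acute against healthy 3.78 ± 0.62, adjusted p = 0.343). Ifit1 read 30.001 and 24.0, 363 and 177, and 86.7 and 99.4 CPM (3.24 ± 0.45, adjusted p = 0.202). Both acute and both chronic libraries were above both healthy ones for these genes.

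Isg15, a ubiquitin-like modifier, read 81.1 and 16.0 CPM in the healthy, 278 and 476 CPM in the acute and 86.7 and 176 CPM in the chronic libraries (2.77 ± 0.60). Irf7, the interferon regulatory factor (2.15 ± 0.58), and the surface restriction factor Bst2 (1.89 ± 0.50) were also above both healthy libraries in both acute ones. Of 22 interferon response genes tested, 19 had a positive change and 15 did not overlap with the healthy libraries, with a median of 0.92 against -0.02 over all genes. The list's median was 0.71 without acute replicate 2, 1.01 without acute replicate 1, 0.80 without healthy replicate 2 and 1.39 without healthy replicate 1. In keratin-rich cells of the same libraries Ifit3 read 0.218 to 11.5 CPM, Ifit1 0.689 to 15.7 CPM and Isg15 0.834 to 22.9 CPM (unscaled CPM), below the low-contractile cells in every library. The other fibroblasts rose too. There Ifit3 read 26.7 and 8.50 CPM in the healthy and 64.9 and 396 CPM in the acute libraries (unscaled CPM). Ifit1 read 38.1 and 13.4 against 118 and 387 CPM, and Isg15 115 and 16.7 against 314 and 895 CPM.

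Targets of p53, the factor that DNA damage activates, had a median of 0.94 in the acute comparison, with 12 of 16 positive and 8 without overlap. The median was 0.63 without acute replicate 1 and 1.13 without acute replicate 2, and the list summed to 2931 and 2766 CPM in the healthy and 6336 and 3724 CPM in the acute libraries (unscaled CPM). Cdkn1a, the inhibitor that arrests the cycle, read 571 and 419 CPM in the healthy, 2246 and 861 CPM in the acute and 3197 and 2046 CPM in the chronic libraries. Mdm2, which marks p53 for degradation, read 54.4 and 19.96, 331 and 53.6, and 173 and 194 CPM. For Mdm2 acute replicate 2 lay within the healthy range, while acute replicate 1 was the highest of the 6. Bax, an effector of apoptosis (1.65 ± 0.36), and Phlda3, an Akt repressor (1.25 ± 0.34), were above both healthy libraries in both acute ones. Dcxr, a carbonyl reductase, read 40.6 and 71.9, 259 and 216, and 325 and 199 CPM (2.16 ± 0.42, adjusted p = 0.835). In keratin-rich cells too its level was higher in all injured than in both healthy libraries, at 125 and 150.1, 281 and 209.9, and 298 and 250.3 CPM (unscaled CPM). The part of keratin-rich cells in the Dcxr difference was not tested.

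On the lower side of the acute comparison were Nr1d1, the clock repressor Rev-erb alpha, at 259.5 and 136 CPM in the healthy and 12.6 and 62.6 CPM in the acute libraries (-2.22 ± 0.59), the neuropeptide Y receptor Npy1r (-1.70 ± 0.60), Gadd45b (-1.42 ± 0.51), Chka (-1.39 ± 0.51) and Fxyd6 (-1.31 ± 0.47). None of these 5 passed. Spon2, a secreted matrix protein, read 719 and 902, 341 and 337, and 271 and 244 CPM, so that the 4 injured libraries lay together below the healthy ones (-1.26 ± 0.31 in the acute and -1.66 ± 0.32 in the chronic comparison). Immediate-early and heat shock genes had a median of -0.47 with 6 of 24 positive, and the median was -0.05 without acute replicate 2, -1.16 without acute replicate 1 and -0.18 without healthy replicate 1. Il6 and Ccl2 went opposite ways in the acute libraries, Il6 at 397 and 14.9 CPM around 231 and 119.8 CPM in the healthy ones, and Ccl2 at 382 and 7.83 CPM around 140.0 and 47.9 CPM. Urothelial markers had a median of -0.39 in this comparison, with 5 of 16 below both healthy libraries, but the direction rested on healthy replicate 2. Without it the median was 0.33 with 11 of 16 positive, and it was -0.87 without healthy replicate 1, -0.12 without acute replicate 1 and -0.83 without acute replicate 2. With at most 2 keratin UMIs it was 1.13, with all 12 tested positive, but healthy replicate 2, at 17 cells, then also dropped out of the fit. The keratin limit and the loss of that library cannot be told apart.

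In the chronic comparison again 0 of 5115 genes (0%) passed with edgeR, 189 had an unadjusted p under 0.05, and DESeq2 passed Sprr2f, Cdkn1a, Trp53inp1 and Dcxr. Both chronic libraries lay above both healthy libraries in 843 genes (16.5%) and below in 778 (15.2%). All 16 p53 targets had a positive change, 12 without overlap, and the median was 1.45 against 0.01 over all genes. The largest without overlap were Trp53inp1, a p53-induced nuclear protein, at 27.2 and 16.0 CPM in the healthy and 75.9 and 244 CPM in the chronic libraries (2.84 ± 0.55, adjusted p = 0.666), and Cdkn1a (2.39 ± 0.49, adjusted p = 0.666). Mdm2 (2.14 ± 0.80) and Phlda3 (1.69 ± 0.35, at 183 and 239.6 against 824 and 542 CPM) were also above both healthy libraries in both chronic ones. In keratin-rich cells Cdkn1a read 331 and 285 CPM in the healthy and 608 and 512 CPM in the chronic libraries (unscaled CPM). Phlda3 read 119 and 145 against 191 and 147 CPM there, and both genes were below the low-contractile cells in every library. In the other fibroblasts Cdkn1a read 560 and 493 CPM (healthy), 3563 and 1819 CPM (acute) and 3761 and 2853 CPM (chronic, all unscaled CPM). Trp53inp1 and Mdm2 were higher in keratin-rich than in low-contractile cells of 4 and 2 libraries, and the part of urothelial RNA was not tested. The median of the list was 1.13 without chronic replicate 1 and 1.31 without chronic replicate 2. The acute and chronic comparisons share the healthy libraries.

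Sprr2f, a cornified envelope gene, was the largest chronic rise among genes with a mean of at least 50 CPM and no overlap, at 8.89 and 11.98 CPM in the healthy and 130.1 and 113 CPM in the chronic libraries (3.63 ± 0.54, adjusted p = 0.342). In keratin-rich cells it read 50.6 and 138 CPM in the healthy and 405 and 339.8 CPM in the chronic libraries (unscaled CPM). It was higher there than in the low-contractile cells of every library. Urothelial markers had a median of 0.56 in this comparison, 0.04 without healthy replicate 1 and 0.98 without healthy replicate 2. Their part in the Sprr2f difference was not tested. Interferon response genes had a median of 0.41, with 18 of 22 positive and 11 without overlap, and immediate-early and heat shock genes of 0.43, with 19 of 24 positive and 10 without overlap. Without chronic replicate 2 the latter median was 0.08. The interferon median was 0.84 without healthy replicate 1, 0.16 without healthy replicate 2 and 0.22 without chronic replicate 1. Hspa1b, a heat shock protein, differed between the chronic libraries, at 108 and 583 CPM against 51.1 and 79.9 CPM in the healthy ones. Igf1 read 23.9 and 51.9, 82.0 and 99.0, and 86.7 and 212 CPM, with all injured libraries above the healthy ones (2.24 ± 0.54 in the chronic comparison).

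Fxyd6, a regulator of the sodium pump, was the largest chronic fall by the same criteria, at 123 and 212 CPM in the healthy and 43.4 and 13.6 CPM in the chronic libraries (-2.78 ± 0.64), followed by Lrrc17 (-2.43), Tmem86a (-2.40), Cyp1b1 (-2.36) and C1qtnf7 (-2.07). None passed, and the lower values of the chronic libraries rest on few molecules. The rule gave Car3 as 1652 and 1789, 2120 and 3179, and 2731 and 1834 CPM and Cxcl14 as 3746 and 3122, 2943 and 6136, and 2287 and 4543 CPM, which are a description only. Aldh1a2, at 248 and 156, 230.3 and 136, and 130.1 and 126 CPM, did not pass (-0.19 ± 0.38 acute, -0.68 ± 0.42 chronic). Matrix genes had medians of -0.11 and -0.21 in the acute and the chronic comparison and contractile genes of -0.19 and -0.20, with 0 calls in either. Without healthy replicate 1 the acute matrix median was 0.14 with 25 of 46 positive, and 23 of 46 were positive in the chronic comparison. Without healthy replicate 2 the contractile median was -0.02 in both comparisons. In the acute one it was 0.02 with at most 2 keratin UMIs, a setting that also left out healthy replicate 2.

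Whether low-contractile and contractile cells responded differently was tested by the interaction of class and condition. With edgeR 0 of 5974 genes (0%) passed for the acute response and 0 (0%) for the chronic response, with 135 and 277 genes at an unadjusted p under 0.05, and DESeq2 passed 0 in both. The interaction medians of the interferon list were 0.14 and 0.23 and those of the p53 list 0.36 and 0.02, for the acute and chronic response, against 0.01 over all genes. Leaving out 1 library gave 0 to 15 genes for the acute response (15 without acute replicate 1, 6 without acute replicate 2) and 0 to 5 for the chronic one. A condition left with 1 library was assumed in these fits to vary like the others.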

How the data were processed

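The authors deposited 6 tables of raw UMI counts per gene and barcode from a 10x droplet 3' assay, and the submitters' processing notes name Cell Ranger and mm10. The study removed doublets and kept fewer cells than the tables hold. The tables were filtered before deposit, since the highest mitochondrial share of a cell is 9.87% to 10.0% in each. Here cells with over 500 genes were used. Of 14450 genes found in all tables, 14338 remained after 112 mitochondrial and ribosomal genes were dropped; the table of acute replicate 2 lists genes of a newer annotation, and genes not in all tables were left out. An incomplete last line of the table of healthy replicate 1 was dropped, and genes after it may be missing there. That table and the one of acute replicate 1 listed 15213 and 15065 genes, each seen in at least 8 and 6 cells. The other tables listed 17764 to 20180 genes, down to those seen in 1 cell. Genes missing from any table were thus left out of every comparison. No column (0) belonged to another sample. UMIs were summed per library and class, with at least 20 cells each, and tested with edgeR's quasi-likelihood test (edgeR 4.0.16, filterByExpr, TMM factors, Benjamini-Hochberg adjusted p under 0.05) in R 4.3.3, with the library as a block between classes and the 3 conditions as groups within the low-contractile cells. The 33 rule genes stayed in library sizes and out of tests. DESeq2 1.42.0 was an alternative, and limma 3.58.1 was loaded with edgeR. Cells were chosen with scanpy 1.11.5, pandas 2.3.3, numpy 2.4.6 and scipy 1.17.1 under Python 3.11.15. Doublets were called by Scrublet in scanpy at an expected 0.8% per 1000 cells, were kept, and were left out as an alternative. For the shares cells were thinned to 2000 UMIs (low-contractile at most 1) or 4000 (at most 2), and Wilson 95% intervals cover counting error only.

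The members of the class and the gene lists were chosen with earlier results of these data known. Named genes are the 12 largest rises and falls that passed, with a mean of at least 50 CPM and 1 direction in every library, or, where fewer than 5 passed, the 5 largest without overlap between the groups. Rule genes, label markers and members of the gene lists with a mean of at least 20 CPM are named besides, and Gli1 and Pdlim3, below that level, were added after their values were seen to complete small counts. Some genes that meet this rule are not reported here. The tests were checked on simulated counts. The replicate numbers were checked for pairing: deviations of same-numbered libraries correlated at 0.397 (healthy with acute), -0.233 (healthy with chronic) and -0.128 (acute with chronic). As labelled, the numbers do not pair all the conditions. Crossing the chronic numbers would turn both chronic correlations positive. The paper says that its samples were handled in batches, which the labels do not name. Whether libraries shared a batch was not tested.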

Additional observations from a re-analysis of the deposited data

How the results depend on the processing

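Against contractile cells, 788 genes passed, and 472 did with DESeq2, 298 with at most 2 keratin UMIs, 441 with called doublets left out, 1930 with classes cut at contractile UMIs per 10000, 377 with at least 10 leading UMIs, 370 to 914 with 1 library left out and 11 with no replicate block (the library as a block between classes). Against the other fibroblasts, 1775 passed, and 1029 did with DESeq2, 785 with at most 2 keratin UMIs, 971 to 1830 with 1 library left out and 436 with no replicate block. In the acute comparison 0 passed, and 4 did with DESeq2, 47 without a filter on low counts, 11 with at most 2 keratin UMIs (3 libraries left) and 0 to 20 with 1 library left out. In the chronic comparison 0 passed, and 4 did with DESeq2, 23 without the filter and 0 to 1 with 1 library left out. For the acute and chronic responses of low-contractile against contractile cells 0 passed, and 3 and 3 did without the filter, 1 and 3 with at least 10 leading UMIs, and 0 to 15 and 0 to 5 with 1 library left out. A condition left with 1 library was assumed to vary like the others. A replicate block by the labels' numbers gave 0 in the acute and the chronic comparison, and the labels do not say whether equal numbers mark a shared batch. Crossed numbers gave 0 in the chronic comparison, with 311 genes at an unadjusted p under 0.05. That number was 165 with the labels' numbers and 189 without a block by number. The chronic comparison and the chronic response could not be fitted with at most 2 keratin UMIs. The acute minus healthy share was 4.71 percentage points and -6.31 to 15.7 with 1 library left out (-2.86 without healthy replicate 2, -6.31 without acute replicate 1), 5.21 and 0.566 after thinning to 2000 and 4000 UMIs and 11.7 with at most 2 keratin UMIs, where both acute libraries lay above both healthy ones (48% and 45.5% against 42.3% and 27.9%). The chronic minus healthy share was 19.5, 11.97 to 27.1 with 1 library left out, 13.8 and 26.3 after thinning to 2000 and 4000 UMIs, and 31.6 with at most 2 keratin UMIs, where chronic replicate 1 had 2 low-contractile and 0 contractile cells and chronic replicate 2 had 6 and 8 (exact permutation test, p = 0.667). With at least 10 leading UMIs it was 16.9. Directions turned for Ccl2 (-3.69) and Il6 (-3.59) in the acute comparison without acute replicate 1, and with 1 library left out Ccl2 ranged from -3.69 to 1.95 and Il6 from -3.59 to 1.18. Of the named genes and the genes of the lists with a mean of at least 20 CPM (273 against the other fibroblasts, 266 against contractile cells), directions turned against the other fibroblasts for Egr2 (-0.017) and Ly6d (-0.017) with at most 2 keratin UMIs and Igfbp2 (-0.066) in cells of 2500 to 10000 UMIs. Against contractile cells they turned for C1s1 (-0.28), Socs3 (-0.27) and Tcf21 (-0.32) per 10000 UMIs, and for Cd74 (-1.56), Gata3 (-0.73), Perp (-0.24) and Vcan (0.55) with at most 2 keratin UMIs. Of all genes that passed, 13 of the 1498 still tested turned against the other fibroblasts with at most 2 keratin UMIs, 10 of 1746 in cells of 2500 to 10000 UMIs, 2 with at least 10 leading UMIs, and 1 each with DESeq2, with doublets left out, with at most 1 contractile UMI and without healthy replicate 2. Against contractile cells 33 of 697 turned with at most 2 keratin UMIs, where 235 still passed, 2 of 763 without healthy replicate 1, where 359 did, and 1 each without acute replicate 2 and with DESeq2. The causes were not tested. The values of the named and listed genes (250 in the acute and 251 in the chronic comparison) were followed over all settings. Against contractile cells 3997 of 4467 kept their side of the threshold without a counted turn of direction, and against the other fibroblasts 3919 of 4362. In the acute comparison 3914 of 3943 did, and in the chronic comparison 3952 of 3972. A turn was counted only where the gene passed in the main or the other setting. With 0 genes passing in the main acute and chronic comparisons, the acute and chronic counts say little about direction. The limit of 10 leading UMIs and the crossed numbers were chosen after seeing the data. With 44 cells in chronic replicate 1, 1 UMI equals 10.8 CPM there, so a lower level could be read only as 0 or as at least 10.8 CPM. Chronic replicate 2 held 61 cells.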
